A study of Mus musculus with 2 samples.

Results

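The 4 adult haemoglobin genes Hba-a1, Hba-a2, Hbb-bs and Hbb-bt, and 5 genes of haem synthesis and red cell formation, Alas2, Cpox, Fech, Hemgn and Slc4a1, were followed in single cells of the newborn mouse forebrain. They were chosen by symbol, and all 9 were found among the 28001 features of both count matrices. There were 2 droplet libraries, 1 from mice without Gmnc (genotype Gmnc-/-, called knockout) and 1 from wild-type mice. All animals were C57BL/6J at postnatal day 0, and each library pooled 4 animals of 2 litters, the wild-type ones littermates of the knockouts, with no mark that ties a cell to its animal. The tissue was lateral and dorsal cortex with hippocampus, and the blood it still held was sequenced with it. With 1 library per genotype no test between genotypes was possible, and every difference below is between these libraries. Intervals in parentheses are exact 95% intervals that cover counting error only.

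Adult haemoglobin is a tetramer of alpha and beta chains, each holding a haem group that binds oxygen. Alas2 makes the committed step of haem synthesis in red cell precursors, Cpox acts late in the pathway, and Fech puts iron into the ring. Red cell precursors build up globin messenger RNA while they still divide under the transcription factors Gata1 and Klf1, then lose their nucleus and circulate for a time as reticulocytes that still hold RNA.

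The alpha genes lie on chromosome 11 and the beta genes on chromosome 7 (mm10, GENCODE M21). Hba-a1 (ENSMUSG00000069919) is at chr11:32283511-32284465 and Hba-a2 (ENSMUSG00000069917) at chr11:32296489-32297298, both on the plus strand. Hbb-bs (ENSMUSG00000052305) is at chr7:103826534-103828096 and Hbb-bt (ENSMUSG00000073940) at chr7:103812524-103813996, both on the minus strand. Each pair is nearly identical in its coding part, with 1 differing base of 429 in the alpha pair (C381T, from Hba-a1 to Hba-a2) and 1 of 444 in the beta pair (C417T, from Hbb-bs to Hbb-bt), counted from the start codon. The stretches that hold those bases are shown because reads from the coding part can be given to a gene of a pair only there. They are 41 bases long, with the differing base in capitals.
Hba-a1, chr11:32284323-32284363: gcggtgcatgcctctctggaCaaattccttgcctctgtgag
Hba-a2, chr11:32297140-32297180: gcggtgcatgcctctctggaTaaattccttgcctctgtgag
Hbb-bs, chr7:103826672-103826712: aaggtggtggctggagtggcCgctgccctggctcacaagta
Hbb-bt, chr7:103812663-103812703: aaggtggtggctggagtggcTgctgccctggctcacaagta
The 3′ untranslated parts, which lie nearest the end that these 3′ libraries read, matched at all 74 aligned bases in the alpha pair, with 16 more bases in Hba-a2. In the beta pair they matched at 95 of 128 aligned bases. The split of the alpha count between Hba-a1 and Hba-a2 is therefore uncertain, and that of the beta count rests on more differing bases.

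Alas2 (ENSMUSG00000025270) is at chrX:150547375-150570638 on the plus strand and overlaps Apex2 and Mir3620 on the other strand. Cpox (ENSMUSG00000022742) is at chr16:58670292-58717636 on the plus strand and overlaps Gpr15 on the other strand. Hemgn (ENSMUSG00000028332) is at chr4:46393989-46413506 and Slc4a1 (ENSMUSG00000006574) at chr11:102348824-102366203. They and Fech (ENSMUSG00000024588) are on the minus strand with no overlapping gene. Whether strand was used in the counting is not given in the sources used here.

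Promoters of 7 of the 9 genes were found in the RefSeq table (GRCm38.p6). The 150 bases before the start were searched on both strands. The GATA motif, the letters NGATAN with adenine or thymine at the starting N and adenine or guanine at the closing N, is present in 16% of all 32851 promoters of the table. A CACCC box, the letters CNCACCC with any base at N, is present in 19.2%, and CCAAT in 24.5%. Cpox had 2 GATA matches that overlap, Alas2 and Hemgn had 1 each, and none of the 4 haemoglobin genes had one in this window. CCAAT was found in all 4 haemoglobin genes and a CACCC box in Hbb-bs, Hbb-bt, Alas2 and Cpox. Cpox, Alas2 and Hba-a2 are shown up to the annotated exon, to show a window with 2 GATA matches, with 1 and with none, with motif matches in capitals.
Cpox, chr16:58670058-58670207, plus strand: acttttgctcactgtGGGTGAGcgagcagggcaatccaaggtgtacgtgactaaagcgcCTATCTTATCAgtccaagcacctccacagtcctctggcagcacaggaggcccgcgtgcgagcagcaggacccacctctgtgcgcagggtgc
Alas2, chrX:150547267-150547374, plus strand: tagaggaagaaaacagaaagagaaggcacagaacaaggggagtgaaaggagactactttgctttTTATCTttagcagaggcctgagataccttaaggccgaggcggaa
Hba-a2, chr11:32296342-32296488, plus strand: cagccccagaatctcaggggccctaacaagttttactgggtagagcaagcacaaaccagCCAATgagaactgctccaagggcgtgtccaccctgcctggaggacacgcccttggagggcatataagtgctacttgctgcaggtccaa
In this window the alpha promoters were 96.1% identical, gaps included, and the beta promoters 73.7%.

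The knockout library had 27663 barcodes with 155482657 unique molecules (UMIs) and the wild-type library 13033 with 88905819. After filters and removal of called doublets, 21184 knockout and 10478 wild-type cells were left, with a median of 4484 and 5994.5 UMIs. Doublets were called in 19.1% of knockout and 4.21% of wild-type cells. The libraries shared 85 barcodes, of which none was in an erythroid-like cell. Gmnc itself gave 89 UMIs in the knockout and 64 in the wild-type library, or 0.821 and 0.812 CPM (UMIs of a gene scaled to a common library total), so its 3′ tag does not check the genotype label, and which part of the gene was removed is not given in the sources used here. There were 0 ependymal-like cells among the knockout cells (a share of at most 0.0142% by counting) and 132 (1.26%) among the wild-type cells.

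Haemoglobin took up 1.61% of all UMIs in the knockout library and 2.13% in the wild-type library. In the kept cells the summed haemoglobin level was 18915 CPM in knockout and 22760 CPM in wild-type cells, a ratio of 0.831 (0.829 to 0.833). Hbb-bt was 1670 CPM in knockout against 2569 CPM in wild-type cells, the lowest ratio of the 4 genes at 0.65, and Hba-a1 was 4879 against 5042 CPM, the highest at 0.968. Over all kept cells 3 of the 9 genes (Alas2, Fech and Slc4a1) were higher and 6 lower in the knockout library. None was past 2-fold on the log2(CPM + 5) scale, where 0.115% of 20023 genes were past 2-fold higher and 0.979% past 2-fold lower (1.09% in all).

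The erythroid-like cells formed 1 cluster, built without the 9 genes and the other globins and named from 16 other erythroid markers, all of which were detected in it. It held 257 knockout cells (1.21% of kept cells, 1.07 to 1.37) and 135 wild-type cells (1.29%, 1.08 to 1.52). These few cells carried 57.8% of the haemoglobin UMIs of kept knockout cells and 64.8% of those of wild-type cells. In the median cell haemoglobin made up 88.4% of UMIs in the knockout and 91% in the wild-type library, and the median depth was 5808 and 10417 UMIs. Markers of brain cells were present in them too. The lists of neurons, progenitors and astroglia were higher in the knockout library, while choroid plexus markers summed to 3.77 CPM in knockout and 10.6 CPM in wild-type cells, ependymal markers to 0.628 and 2.11 CPM, and microglia markers to 22.6 and 21.1 CPM. All 9 astroglia markers were detected in knockout erythroid-like cells and summed to 466 CPM, against 8 of 9 with Aqp4 at 0 and 136 CPM in wild-type erythroid-like cells. The 8 interneuron markers, all detected, summed to 296 CPM in knockout and 81.7 CPM in wild-type erythroid-like cells. Their part in the results below was not tested.

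**Figure D1:**
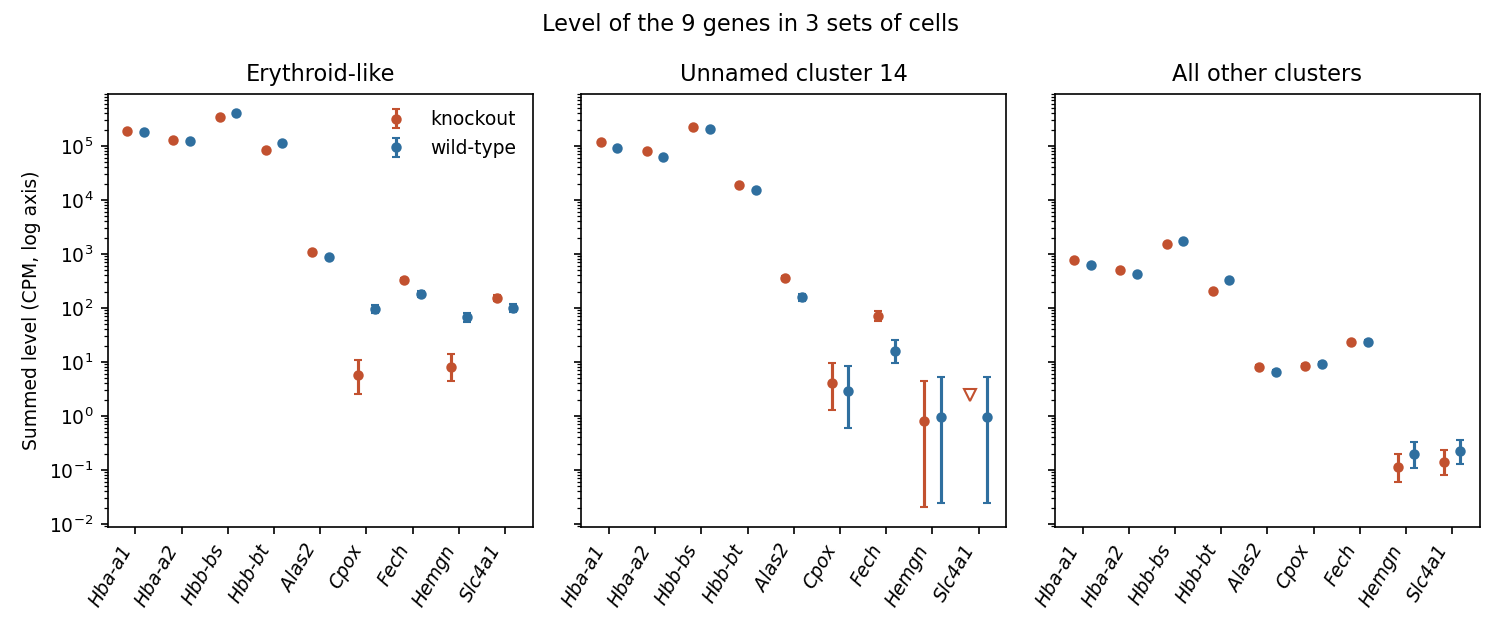
Summed level of each of the 9 genes in CPM (log axis) in erythroid-like cells, in unnamed cluster 14 and in all other clusters. Points are 1 library each, knockout left of wild-type, with exact 95% Poisson intervals, and an open triangle marks the limit that a count of 0 allows. Slc4a1 and Hemgn are near 0 in the other 2 panels, while Fech and Cpox are present in all 3.

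In erythroid-like cells the 4 haemoglobin genes differed in balance between the libraries, with more alpha and less beta in the knockout library. The alpha gene Hba-a1 had 189934 CPM in knockout and 178554 CPM in wild-type cells, a ratio of 1.06 (1.06 to 1.07). Hba-a2 had 131022 against 123577 CPM, a ratio of 1.06 (1.05 to 1.07). The beta genes were lower. Hbb-bs, the main adult beta gene here, had 337966 CPM in knockout against 402162 CPM in wild-type cells, a ratio of 0.84 (0.837 to 0.844). Hbb-bt, the other adult beta gene, had 85423 against 113799 CPM, a ratio of 0.751 (0.745 to 0.756).

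The direction of the single genes depends on the scaling, because haemoglobin makes up most of the total. Across the 7677 genes with 10 or more UMIs in both libraries together, the median log2 ratio of knockout over wild-type was 0.65 in these cells, and 30.4% of genes were past 2-fold, 28.8% higher and 1.64% lower. Summed haemoglobin was 744345 CPM in knockout and 818092 CPM in wild-type erythroid-like cells, a ratio of 0.91. The ratio was 0.647 with haemoglobin left out of the total and 0.497 with median-of-ratios scaling, and Hba-a1 and Hba-a2 were lower in the knockout library under both. With median-of-ratios scaling Fech alone of the 9 genes was not lower. The choice of cells also turned the summed ratio, to 1.94 where erythroid-like cells were those with 3 or more of the markers. It was 1.28 with doublets kept, where no cluster took the erythroid name and the same marker rule was used in its place. Of the 9 genes, 5 were higher and 4 lower in knockout erythroid-like cells. None was past 2-fold higher and 2, Cpox and Hemgn, were past 2-fold lower, and the median of the 9 was 0.08 on the log2 scale.

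Shares within the haemoglobin count do not depend on that scaling. The alpha genes together made up 43.1% (43 to 43.2) of haemoglobin UMIs in knockout erythroid-like cells and 36.9% (36.8 to 37) in wild-type ones. Hbb-bs made up 45.4% in knockout and 49.2% in wild-type cells. Hbb-bt made up 11.5% (11.4 to 11.5) in knockout and 13.9% (13.8 to 14) in wild-type cells. Hba-a1 held 59.2% of the alpha count in knockout and 59.1% in wild-type cells, so within the alpha pair the libraries lay together, and the shift was between alpha and beta and, less, within the beta pair. The shift between alpha and beta was not particular to the erythroid-like cells. In cluster 14, described below, the ratios were 1.3 for each alpha gene, 1.08 for Hbb-bs and 1.23 for Hbb-bt. In all remaining clusters they were 1.19 for each alpha gene, 0.9 for Hbb-bs and 0.64 for Hbb-bt.

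**Figure D2:**
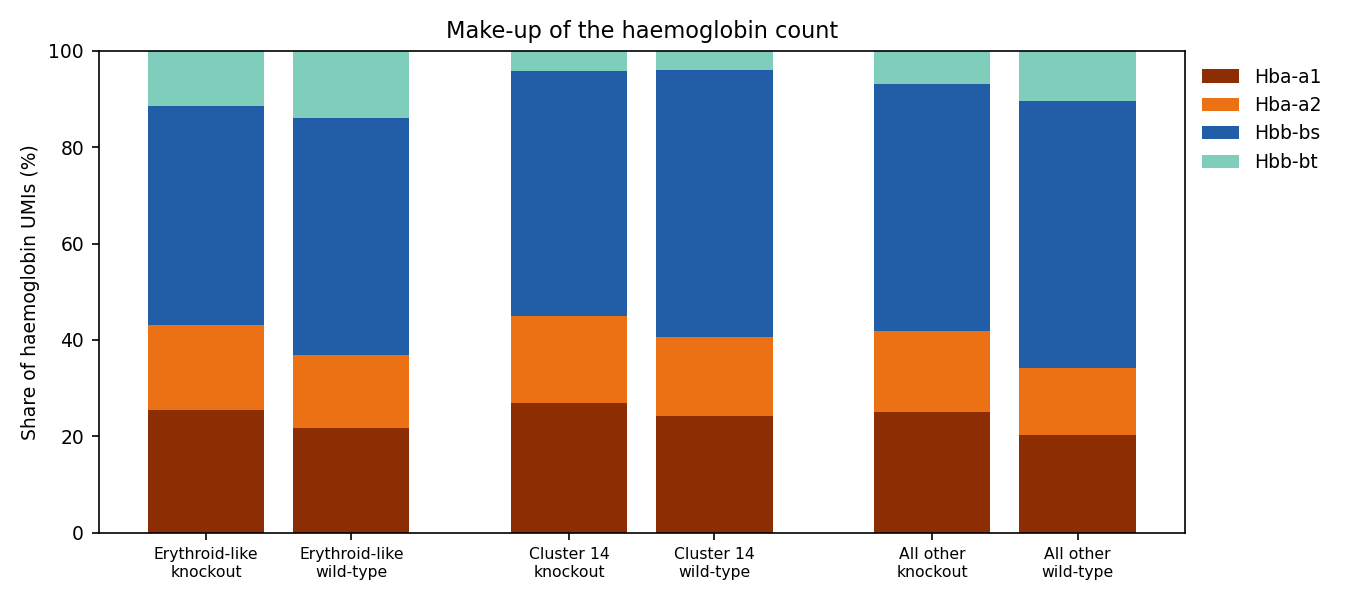
Share of each of the 4 haemoglobin genes in the haemoglobin UMIs (%) of erythroid-like cells, of unnamed cluster 14 and of all other clusters, with the knockout bar left of the wild-type bar. Hbb-bt makes up 11.5% and 13.9% in erythroid-like cells and 4.23% and 4.05% in cluster 14.

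Alas2, which makes the committed step, had 1064 CPM in knockout and 867 CPM in wild-type erythroid-like cells, a ratio of 1.23 (1.14 to 1.32). It was found in 252 of 257 knockout cells and 127 of 135 wild-type cells, with a median of 6 and 8 UMIs per cell. Set against haemoglobin, there were 14.3 Alas2 UMIs (13.6 to 15) per 10000 haemoglobin UMIs in knockout and 10.6 (10 to 11.2) in wild-type cells. This ratio of the genes to each other was higher in the knockout library at every setting tried.

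Fech, the last enzyme of the pathway, had 334 CPM in knockout and 182 CPM in wild-type erythroid-like cells, a ratio of 1.83 (1.58 to 2.14), and 1.0007 with median-of-ratios scaling. Per 10000 haemoglobin UMIs it had 4.49 (4.12 to 4.89) in knockout and 2.23 (1.97 to 2.52) in wild-type cells. Slc4a1, the anion exchanger of the red cell membrane, had 150 CPM in knockout and 101 CPM in wild-type cells, a ratio of 1.49 (1.2 to 1.84), and lay in 83 of 257 and 38 of 135 cells. Per 10000 haemoglobin UMIs it had 2.01 in knockout and 1.23 in wild-type cells. So 3 of the 5 further genes were higher relative to haemoglobin in the knockout library.

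Cpox and Hemgn went the other way, on few cells. Cpox had 9 UMIs in knockout and 136 in wild-type erythroid-like cells, or 5.66 (2.59 to 10.7) against 95.7 CPM (80.3 to 113). Hemgn, a nuclear protein of blood precursors, had 13 UMIs in knockout and 95 in wild-type cells, or 8.17 (4.35 to 14) against 66.9 CPM (54.1 to 81.8). In the wild-type library 5 cells held 91.2% of the Cpox UMIs and 5 held 81.1% of the Hemgn UMIs. The wild-type cell with the most Hemgn, 21 UMIs, also had 34 Cpox, 20 Slc4a1, 3 Gata1 and 5 Klf1 UMIs, and haemoglobin made up 34.1% of its 17657 UMIs. Another had 17 Hemgn and 40 Cpox UMIs, 36 UMIs of the proliferation gene Mki67, and haemoglobin at 0.14% of 39993 UMIs. In the knockout library the cell with the most Hemgn had 4 UMIs of it and 2 of Cpox, with 4 Gata1 and 21 Mki67 UMIs, and haemoglobin at 2.59%. Both libraries thus held such cells, and the wild-type library held more of them.

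The erythroid-like cells were therefore split by whether they held a UMI of Gata1 or Klf1, a choice made after these values were seen. There were 6 such cells in the knockout and 13 in the wild-type library, with a median haemoglobin share of 35.2% and 34.1%, and the other 251 and 122 cells had 88.5% and 91.2%. In the cells with a regulator Cpox had 80 CPM (26 to 187) in knockout and 768 CPM (643 to 911) in wild-type cells, and Hemgn had 80 CPM (26 to 187) and 518 CPM (416 to 637). In the cells without one Cpox had 4 UMIs in knockout and 4 in wild-type cells, and Hemgn had 8 and 6, or 5.23 CPM (2.26 to 10.3) and 4.8 CPM (1.76 to 10.5). The difference of both genes between the libraries was thus carried by cells with a regulator UMI, and without those cells Hemgn gave a ratio of 1.09.

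In CPM of all UMIs, Fech, Slc4a1 and Alas2 were still higher in the knockout library in the cells without Gata1 or Klf1. Fech had 336 CPM (308 to 367) in knockout and 164 CPM (142 to 188) in wild-type cells. Slc4a1 had 130 CPM (112 to 149) in knockout and 45.6 CPM (34.6 to 59.1) in wild-type cells. Alas2 had 1089 CPM in knockout and 919 CPM in wild-type cells. In CPM of all UMIs the alpha genes were not both higher in these cells. Hba-a1 was at 195080 CPM in knockout and 194900 CPM in wild-type cells, and Hba-a2 at 134700 and 136250 CPM. Hbb-bs (347090 and 438110 CPM) and Hbb-bt (87542 and 124950 CPM) were still lower in the knockout library. In the cells with a regulator the intervals of Alas2 overlapped, at 448 CPM (298 to 647) in knockout and 489 CPM (390 to 605) in wild-type cells, as did those of Fech and Slc4a1. Hba-a1 made up 61% of the alpha count in knockout and 65.5% (64.7 to 66.2) in wild-type cells with a regulator, against 59.2% and 58.9% in the cells without one.

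**Figure D3:**
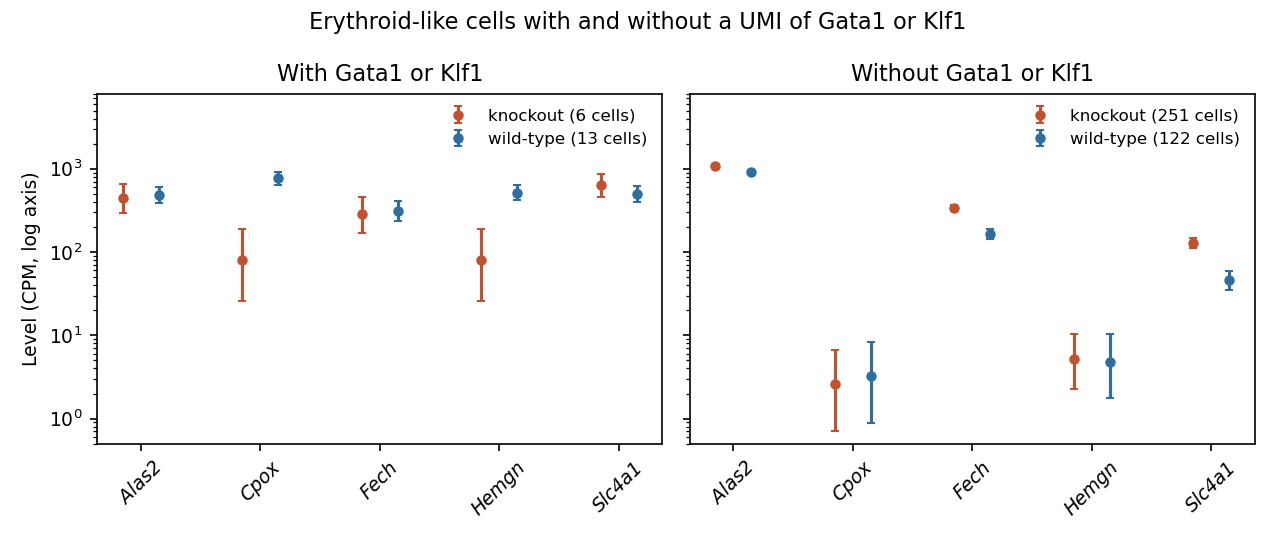
Level of the 5 genes beside the haemoglobin genes in CPM (log axis) in erythroid-like cells with and without a UMI of Gata1 or Klf1, with exact 95% Poisson intervals. Knockout points are left of wild-type points. Cpox and Hemgn are higher in cells with a regulator than in those without in both libraries, and their intervals overlap between the libraries in the right panel.

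Other genes of the pathway were read from lists. Of the 9 haem synthesis enzymes, which include Alas2, Cpox and Fech, 8 passed the count filter in erythroid-like cells. None was past 2-fold higher in knockout cells and 5 were past 2-fold lower, and their median was -1.21 on the log2 scale, against 0.65 over all genes. Besides Cpox they included Alad with 30 UMIs in knockout and 96 in wild-type cells, Uros with 1 and 12, and Ppox with 9 and 27. Alad and Uros act after the Alas2 step and before Cpox, and Ppox acts after Cpox. Urod, between Uros and Cpox, had 89 UMIs in knockout and 98 in wild-type cells, a log2 ratio of -0.28.

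These counts and those below stand beside 28.8% of all 7677 genes past 2-fold higher and 1.64% past 2-fold lower in the same cells. Of 8 haem and iron transport genes that passed, 1 was past 2-fold higher, Slc25a37, the mitochondrial iron importer, with 589 UMIs in knockout and 250 in wild-type cells. Past 2-fold lower were Tfrc, the transferrin receptor, with 31 and 67 UMIs, and Steap3 with 1 and 12. Of 9 erythroid regulators 4 were past 2-fold lower and none past 2-fold higher. These were Gata1 with 6 UMIs in knockout and 23 in wild-type cells, Klf1 with 9 and 37, Gfi1b with 2 and 13, and Lmo2 with 19 and 67. Of 15 membrane genes, which include Slc4a1, 1 (Epb41, 521 and 151 UMIs) was past 2-fold higher and 4 (Sptb, Rhag, Rhd and Dmtn) were past 2-fold lower. Some of these lower genes lay mostly in few wild-type cells. The 10 wild-type erythroid-like cells under 50% haemoglobin held 21 Gata1, 32 Klf1, 59 Tfrc and 43 Rhag UMIs. At 50% or more, 229 knockout and 125 wild-type cells held 0 and 2 of Gata1 and 2 and 5 of Klf1. They held 10 and 8 of Tfrc and 6 and 4 of Rhag. Alad, Uros, Ppox, Steap3, Gfi1b and Lmo2 were not split in this way. None of the 5 haem breakdown and iron storage genes that passed was past 2-fold, nor any of the 5 red cell enzymes and chaperones, among which Bpgm had 1358 UMIs in knockout and 1022 in wild-type cells.

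Of 9 embryonic and other globins 3 passed, with 1 past 2-fold higher, Hbb-y, and none past 2-fold lower. Hbb-y had 71 UMIs in knockout and 8 in wild-type erythroid-like cells, of which 65 lay in 1 knockout cell. Hba-x had 0 UMIs in knockout and 4 in wild-type erythroid-like cells, and in the whole kept wild-type library 226 of its 230 UMIs lay in 1 cell of another cluster.

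A second cluster with much haemoglobin, cluster 14, took no name. It held 524 knockout and 363 wild-type cells with a median of 2274 and 2117 UMIs, and its leading genes, Ttr, Npy, Sst, Nrgn, Slc25a37 and Ube2l6, were not those of 1 cell type. Its cells were of 2 kinds, with few between them. Haemoglobin made up 50% or more of UMIs in 287 knockout and 165 wild-type cells and under 1% in 222 and 177, with 1% to 10% in 2 and 7 cells and 10% to 50% in 13 and 14. The median share was 65% in knockout and 8.57% in wild-type cells, and the wild-type median thus falls where few cells lie. The cluster held 26.6% and 22% of the haemoglobin UMIs of kept cells. Of the 16 erythroid markers 10 were detected in each library, with Gata1, Klf1, Nfe2, Epb42 and Trim10 at 0 in both. Slc4a1 had 0 UMIs in knockout, which allows up to 2.4 CPM, and 1 UMI in wild-type cells.

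Hbb-bt was a smaller part of haemoglobin in this cluster than in the erythroid-like cells. It made up 4.23% (4.18 to 4.29) of haemoglobin UMIs in knockout and 4.05% (3.99 to 4.12) in wild-type cells of cluster 14. Among cells with 100 or more alpha and 100 or more beta UMIs, the median Hbb-bt share of the beta count was 5.39% in knockout and 4.44% in wild-type cells of cluster 14, and 21% and 22.3% in erythroid-like cells. It was under 10% in 231 of 296 knockout cells (78%) and 146 of 172 wild-type cells (84.9%) of cluster 14. In erythroid-like cells it was under 10% in 35 of 256 knockout cells (13.7%) and 19 of 133 wild-type cells (14.3%). The contrast between the sets of cells was thus present in both libraries. It was not particular to cluster 14, since among such cells of all remaining clusters the median was 4.96% in knockout and 6.2% in wild-type cells, and the share was under 10% in 114 of 161 (70.8%) and 39 of 64 (60.9%). The alpha pair showed none, as the median Hba-a1 share of the alpha count per cell lay between 59% and 59.6% in erythroid-like cells and cluster 14 of both libraries.

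**Figure D4:**
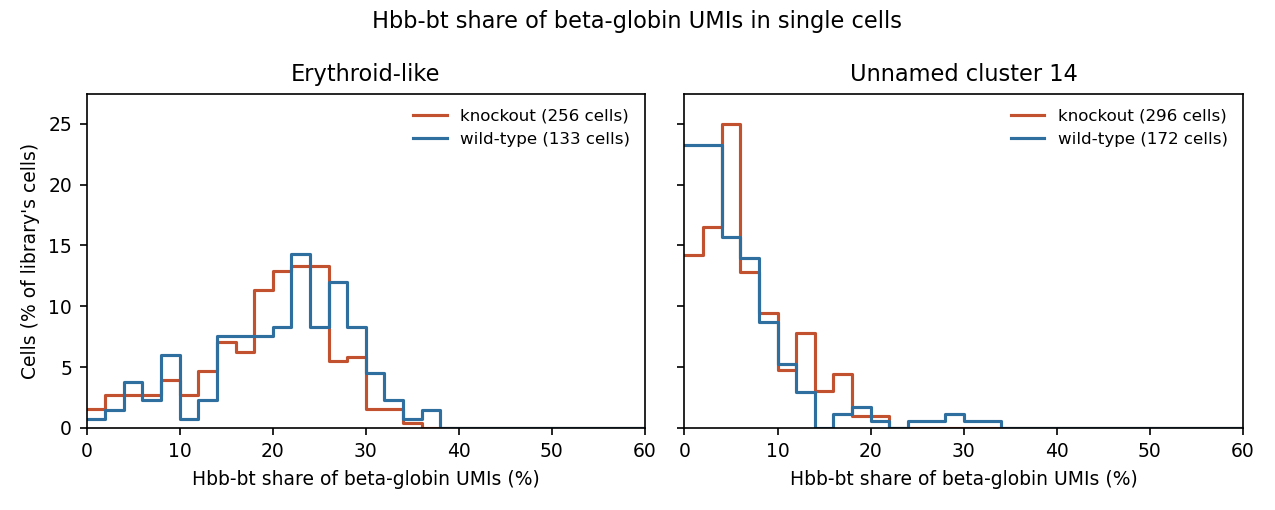
Share of Hbb-bt in the beta-globin UMIs of single cells (%), as the share of each library's cells per bin of 2 percentage points, in erythroid-like cells and in unnamed cluster 14. Only cells with 100 or more alpha and 100 or more beta UMIs are counted, and the medians are 21% and 22.3% in erythroid-like cells and 5.39% and 4.44% in cluster 14 (knockout, then wild-type).

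Alas2 and Fech were higher in the knockout cells of cluster 14. Alas2 had 360 CPM in knockout and 157 CPM in wild-type cells, a ratio of 2.3 (1.92 to 2.76). Fech had 71.2 CPM in knockout and 16 CPM in wild-type cells, a ratio of 4.44 (2.62 to 7.96). Of the 9 genes 6 passed the filter there, and 2, Alas2 and Fech, were past 2-fold higher and none past 2-fold lower, beside 6.14% of 8674 genes higher and 1.45% lower (7.6% in all). Per 10000 haemoglobin UMIs Alas2 had 8.24 in knockout and 4.21 in wild-type cells, below its value in erythroid-like cells in either library.

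In all remaining clusters haemoglobin averaged 3026 CPM in 20403 knockout cells and 3109 CPM in 9980 wild-type cells, a ratio of 0.973, and these cells held 15.6% and 13.2% of the haemoglobin UMIs. The classes among them did not share that ratio. Endothelial-like cells had 12379 CPM in knockout and 27547 CPM in wild-type cells, a ratio of 0.449. They held 1.4% and 5.78% of the haemoglobin UMIs of kept cells. The ratio was 0.781 in astroglia-like, 1.45 in excitatory neuron-like and 1.72 in interneuron-like cells. It ran from 0.0483 in mural-like to 48.1 in macrophage-like cells, where 1 knockout cell held 95.8% of the knockout count. In endothelial-like cells, 17 knockout and 25 wild-type cells held 96.3% and 98.6% of the class's haemoglobin. Cells under 1% haemoglobin had 551 CPM in knockout and 485 CPM in wild-type endothelial-like cells. In astroglia-like cells they had 260 and 178 CPM, so both directions differed from those of the whole classes. Over all remaining clusters 3 of the 9 genes (Hba-a1, Hba-a2 and Alas2) were higher and 6 lower in the knockout library. None was past 2-fold, beside 0.12% of 19998 genes past 2-fold higher and 1.02% past 2-fold lower (1.14% in all). With cluster 14 added the counts of the 9 genes were the same, beside 0.12% higher, 1.01% lower and 1.13% in all. Most of this haemoglobin lay in few cells. Those with 1% or more of their UMIs from haemoglobin, 264 in the knockout and 140 in the wild-type library, held 89.5% and 92.5% of it.

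The other cells of these clusters held a low and even amount. They averaged 1.66 haemoglobin UMIs per cell (1.65 to 1.68) in the knockout and 1.81 (1.78 to 1.84) in the wild-type library, with a median of 1 in both. The mean hardly followed depth. Knockout cells of unnamed cluster 6 held 1.44 at a median depth of 2934 UMIs and knockout microglia-like cells 1.89 at 6838 UMIs, and in the wild-type library ependymal-like cells held 1.82 at 17418 UMIs. In CPM their haemoglobin level was 323 in the knockout and 238 in the wild-type library, whose cells were deeper, with a median of 4537 and 6160 UMIs (knockout, then wild-type). Of the haemoglobin UMIs in these cells Hbb-bt made up 7.79% (7.51 to 8.09) in the knockout and 10.4% (10 to 10.9) in the wild-type library, between its shares in cluster 14 and in erythroid-like cells.

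Endothelial-like cells, which line blood vessels, held more. Those under 1% haemoglobin averaged 6.54 UMIs (6.15 to 6.94) in 163 knockout cells and 7.59 (7.2 to 7.98) in 193 wild-type cells, with a median of 2 in both and a highest value of 238 and 416. Of them 13 (7.98%, 4.31 to 13.3) in the knockout and 12 (6.22%, 3.25 to 10.6) in the wild-type library had 10 or more haemoglobin UMIs, against 0.506% and 0.783% of all such cells. Cajal-Retzius-like cells averaged 3.05 in the knockout and 2.45 in the wild-type library, where 1 cell of each held 126 and 40 UMIs. Unnamed cluster 27 had 1.33 in the knockout and 3.09 in the wild-type library.

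**Figure D5:**
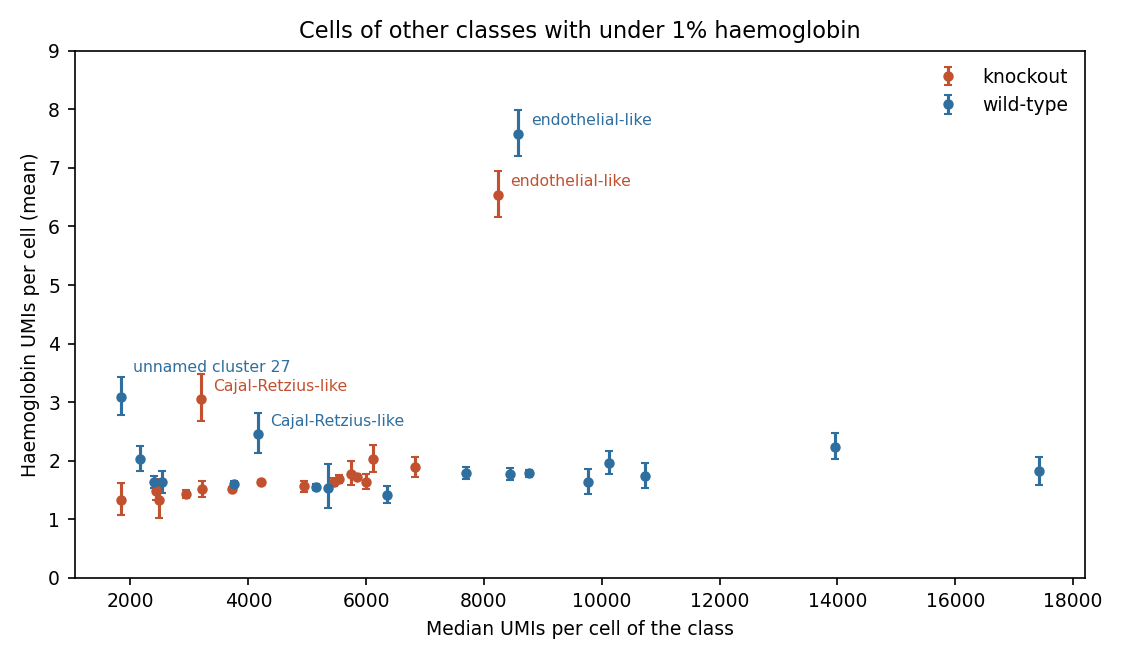
Mean haemoglobin UMIs per cell of each class outside the erythroid-like one, in cells with under 1% haemoglobin, against the median UMIs per cell of the class, with exact 95% Poisson intervals. Most classes lie between 1.3 and 2.3 over the whole range of depth, and the endothelial-like cells of both libraries lie at 6.54 (knockout) and 7.59 (wild-type).

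A haemoglobin UMI was found in 76.7% of knockout and 76.2% of wild-type cells that were not erythroid-like. After thinning each cell to 2000 UMIs the share was 46.8% (46 to 47.5) in 17968 knockout cells and 38.7% (37.6 to 39.7) in 8524 wild-type cells, with 2959 and 1819 shallower cells left out. The thinned cells had a median of 4937.5 UMIs before thinning in the knockout and 7175.5 in the wild-type library. Thinning keeps a smaller part of the UMIs of a deeper cell. Outside cluster 14 the thinned share was lowest in wild-type microglia-like cells at 18.6%. It was highest in knockout cells of unnamed cluster 27 at 71.4%. Their medians before thinning were 14207 and 2961 UMIs, and their unthinned shares were 79.7% and 73.7%. The part of depth in the differences between thinned shares was not tested. How much of the haemoglobin in these cells is free RNA was not tested.

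The 5 further genes were of 2 kinds outside the erythroid-like cells. Slc4a1 and Hemgn were close to absent from the remaining clusters, at 0.142 and 0.114 CPM in the knockout and 0.223 and 0.197 CPM in the wild-type library. Fech and Cpox, enzymes that all cells need, were present in every class. Fech had 23 CPM (22.1 to 23.9) in the knockout and 23.8 CPM (22.7 to 24.9) in the wild-type library. Cpox had 8.4 CPM (7.85 to 8.97) in the knockout and 9.17 CPM (8.51 to 9.88) in the wild-type library. In the order of classes, Fech was highest in erythroid-like cells of both libraries. Cpox was highest in wild-type erythroid-like cells at 95.7 CPM. In CPM of all UMIs, knockout erythroid-like cells at 5.66 CPM lay within the range of the other classes, 2.83 to 18.6 CPM. That placement rests on 9 UMIs and on a total that is mostly haemoglobin. With haemoglobin left out of the total, Cpox was 22.1 CPM in knockout and 526 CPM in wild-type erythroid-like cells.

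Alas2 outside the erythroid-like cells did not keep its ratio to haemoglobin. In the cells under 1% haemoglobin, cluster 14 included, it had 538 UMIs in the knockout and 240 in the wild-type library, or 159 and 132 per 10000 haemoglobin UMIs, against 14.3 and 10.6 in erythroid-like cells. Apex2, which overlaps it on the other strand, had 5194 UMIs in the knockout and 3304 in the wild-type library in the same cells, and 18 and 5 in erythroid-like cells. Of the 515 knockout and 236 wild-type cells with an Alas2 UMI, 41.6% and 52.5% also had an Apex2 UMI, against 19.7% and 23.3% of all these cells. The cells with Alas2 were deeper, with a median of 5673 UMIs in the knockout and 7481.5 in the wild-type library, against 4502 and 6071 over all. The use of strand is not stated, and whether these Alas2 UMIs include reads of Apex2 was not tested.

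The genes whose level across classes was most like that of summed haemoglobin were sought over 36 sums of 1 class in 1 library with 50 or more cells. The search took in 2139 genes with 50 or more UMIs in erythroid-like cells. By Pearson's r of log2(CPM + 1) they included Kel (0.84), Tspo2 (0.82), Mkrn1 (0.78), Isg20 (0.77), Slc25a37 (0.69), Hbq1b (0.67), Ube2l6 (0.62), Bpgm (0.62) and Rec114 (0.61). All of these but Hbq1b and Rec114 are among the 16 markers that named the erythroid-like cluster. The count filter and the markers thus favoured erythroid genes in this ranking. Among the further genes themselves Alas2 reached 0.95, Hemgn 0.62, Slc4a1 0.61, Fech 0.56 and Cpox 0.14. The sums of a library share its depth and background, and the values are a description.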

How the data were processed

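Polyadenylated RNA of dissociated forebrain cells was sequenced with 10x Genomics 3′ v3.1 chemistry, 1 library per genotype, per the labels' protocols. The deposited values are UMI counts per gene and barcode. The submitters' processing notes name Cell Ranger 7.1.0 and the build mm10; use of strand and introns is not given in the sources used here. Barcodes needed at least 1000 UMIs and a mitochondrial share below 10%, and doublets called with Scrublet were removed. Cells were clustered (scanpy 1.11.5, leidenalg 0.10.2, 2000 variable genes, 30 components, 15 neighbours, resolution 1) without the 9 genes and the other globins, and clusters were named from marker lists; 4 of 33 stayed unnamed. The members, markers and gene lists were chosen with earlier results of these data known.

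Counts were summed per class and library and given as CPM of all UMIs, with exact Poisson intervals; shares have Clopper-Pearson and ratios conditional binomial intervals (scipy 1.17.1). All intervals are at 95%. UMIs of a cell are not independent samples of the animals. Genes with 10 or more UMIs in both libraries together were compared on the log2(CPM + 5) scale, and 2-fold marks size, not a test. A count of 0 allows up to 3 counts. For thinning, 2000 UMIs were drawn per cell. Named genes come from the 9 members, the gene lists, the markers and the 10 genes most like summed haemoglobin, some of which are not reported here; the single cells with Hemgn UMIs were picked after their values were seen. Alternatives changed the cell filter, doublets, clustering, class definition, scaling, added CPM and count filter. Procedures were tested on simulated data. Promoters are from RefSeq, and exons and coding parts from GENCODE M21.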

Additional observations from a re-analysis of the deposited data

How the results depend on the processing

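No paired analysis was possible because each genotype has 1 library, and no replicate could be left out. The ratio of summed haemoglobin in erythroid-like cells, 0.91, was 0.942 with the looser cell filter, 0.906 with the stricter one, 1.28 with doublets kept (where no cluster took the erythroid name and cells with 3 or more markers stood in), 1.0016 at resolution 0.5 (where the class took in 847 cells of cluster 14), 0.899 with the 9 genes kept in the clustering, 1.94 with cells chosen by 3 or more markers, 0.497 by median-of-ratios scaling, 0.647 with haemoglobin left out of the total and 0.937 as a mean over cells. Outside them the ratio, 0.993, was 1.0089, 0.819, 0.900, 0.968, 0.63 and 1.03 under the same first 6 settings, 0.973 without cluster 14, 0.918 as a mean over cells and 0.983 with median-of-ratios scaling. Of the 9 genes, 5 were higher in knockout erythroid-like cells, against 1 with median-of-ratios scaling and 2 with haemoglobin left out of the total. Outside them 3 were higher, against 1 with the 9 genes kept in the clustering, 6 with cells chosen by markers and 5 as a mean over cells, and over all cells 3, against 5 as a mean over cells. Genes past 2-fold in erythroid-like cells numbered 2334, against 847 with doublets kept, 611 at resolution 0.5, 1183 by markers, 975 with median-of-ratios scaling and 3896 with 1 CPM added. Outside them they numbered 226, against 113 as a mean over cells and 625 with 1 CPM added, and over all cells 219, against 112 and 617. The Hbb-bt share of haemoglobin in erythroid-like cells, -2.43 percentage points in knockout minus wild-type, was -2.56 and -2.06 with the looser and stricter filter, -2.95 with doublets kept, -2.24 at resolution 0.5, -2.25 with the 9 genes kept in the clustering and -2.66 by markers. The thinned share ratio, 1.21, was 1.35 with the stricter filter and 1.0063 without thinning. Of alternatives added after seeing the data, leaving out cells with a Gata1 or Klf1 UMI gave a summed ratio of 0.855 and an Hbb-bt difference of -2.52. For Hemgn it gave 1.09 in CPM, on 8 knockout and 6 wild-type UMIs, the 1 turn of direction among genes past 2-fold. Genes within 2-fold turned too in erythroid-like cells: over 12 settings Hba-a1 was higher in the knockout library in 10, Hba-a2 in 9, Alas2 in 10, Slc4a1 in 11, Hbb-bs and Hbb-bt in 2 each, Fech in 12 and Cpox in none. Ratios ran from 0.581 to 2.31 for Hba-a1, 0.459 to 1.77 for Hbb-bs, 0.669 to 2.55 for Alas2 and 0.811 to 3.08 for Slc4a1. The ratio of Alas2 per haemoglobin UMI, 1.35, stayed between 1.3 and 1.39. The cause of these shifts was not tested, and the cells counted differ too: the class took in 350 cells of cluster 14 with the stricter filter and 475 with the 9 genes kept in the clustering.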
